A study of Rattus norvegicus with 15 samples.

Results

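The enzymes described here carry glucose through the upper and middle part of glycolysis, from hexokinase to phosphoglycerate mutase, in neurons laser-captured from the rat midbrain. The 10 gene symbols looked for were Hk1, Pfkm, Pfkl, Pfkp, Aldoa, Aldoc, Tpi1, Gapdh, Pgk1 and Pgam1. Every probe set to which the platform annotation gave 1 of these symbols alone was taken, whatever its value, which gave 25 of the 8799 probe sets on the array, for 9 of the 10 genes, among 4736 genes with a probe set of their own. Each probe set combines several short probes that read the same transcript. Of the 25, 16 were ordinary probe sets and 9 were Affymetrix control probe sets, 6 for Gapdh and 3 for Hk1. Gapdh had control probe sets only, and Tpi1 had no probe set of its own. Another 2 probe sets carried several symbols, with Tpi1 or Gapdh among them, and are given by their IDs.

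The arrays held RNA of neurons from 2 neighbouring dopamine cell groups, with 8 arrays for the substantia nigra pars compacta (SNc) and 7 for the ventral tegmental area (VTA). The title names Parkinson's disease, which affects dopamine neurons of the SNc more than those of the VTA. The labels name laser capture microdissection (LCM) for both regions and give no treatment, strain, age or number of animals, nor how neurons were recognised. They do not say that arrays came from separate animals, so the p-values rest on the spread over arrays alone, part of which could be technical.

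Glycolysis splits glucose into pyruvate and yields ATP without oxygen. Hexokinase, phosphofructokinase and aldolase form the preparatory steps, which spend ATP and cut the sugar into triose phosphates. Triose phosphate isomerase, GAPDH, phosphoglycerate kinase and phosphoglycerate mutase then carry the triose phosphates onward, and ATP is regained. Several steps have tissue isoforms, so the genes expressed differ between neurons, glia and muscle.

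Signals are intensities on the scale the authors deposited. Each difference is the SNc mean minus the VTA mean of log2(intensity + 16), with its standard error (SE) from limma, and passed the threshold at a Benjamini-Hochberg adjusted p under 0.05 over the 5244 probe sets tested. Median signal per array was 41.3 ± 3.05 in SNc and 45.0 ± 1.72 in VTA (SD, n = 8 and 7, exact two-sided permutation p = 0.0168). The dopamine neuron markers Th, Slc6a3, Slc18a2 and Ddc were bright in both regions. Nr4a2 averaged 334 in SNc and 500 in VTA, and Pitx3 130 in SNc and 154 in VTA. The 6 listed genes summed to 18628 to 23006 in SNc and 15269 to 22369 in VTA. None of the 6 passed, and their differences went both ways, with Slc6a3 at 0.34 and Nr4a2 at -0.65. The 6 astrocyte markers with a probe set summed to 2582 to 3649 in SNc and 2398 to 4953 in VTA, and the 6 oligodendrocyte markers to 5512 to 9772 in SNc and 7868 to 11545 in VTA. The 5 GABA neuron markers summed to 925 to 1859 in SNc and 560.4 to 1122 in VTA, and Gad1 and Pvalb among them passed as higher in SNc (adjusted p = 0.00154 and 0.0282 in limma). None of the astrocyte or oligodendrocyte markers tested passed. Slc17a7, the only glutamate neuron marker with a probe set, lay at 1.59 to 6.64 in SNc and 2.41 to 7.35 in VTA. In captured material of this kind, a change in the share of a cell type and a change in RNA per cell cannot be told apart. VTA 5 and VTA 8 had the lowest median correlation with the other arrays (0.910 and 0.919).

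Of the 16 ordinary member probe sets, 15 passed the filter on dim signals and were tested, and none of the 15 passed the threshold in limma or in an exact Wilcoxon test. Over all 5244 probe sets, 1.98% passed in limma, 44 (0.839%) higher in SNc and 60 (1.14%) higher in VTA, or 67 higher in SNc and 37 higher in VTA with each array centred on its median. The median log2 signal differed by -0.09 between the regions (SNc minus VTA), so this centring raised every difference by as much. At an unadjusted p under 0.05 there were 3 member probe sets, 1 each of Pfkm, Pgk1 and Pgam1, all with higher SNc means, where 15.4% of all probe sets tested were under that level and 5.87% were so with a higher SNc mean. The SNc and VTA arrays overlapped for every one of the 15, while 0.858% of all probe sets tested had no overlap. Of the 15 differences 13 were positive and 2 negative, with a median of 0.15 and a range of -0.11 to 0.36. Over all probe sets tested 43.3% of differences were positive, with a median of -0.04.

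The member probe sets lay mostly among bright ones, and the difference between the regions moved with signal over the whole array. When the probe sets tested were split into 10 groups by mean signal, the median difference was -0.09 in the dimmest group, lowest in the next at -0.12, and 0.07 in the brightest. In the brightest group 63.0% of 525 differences were positive. It held 8 of the 15 member probe sets, all 8 with a positive difference, and their median was 0.16. Over the 15, 13 had a difference above the median of their own signal group.

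**Figure D1:**
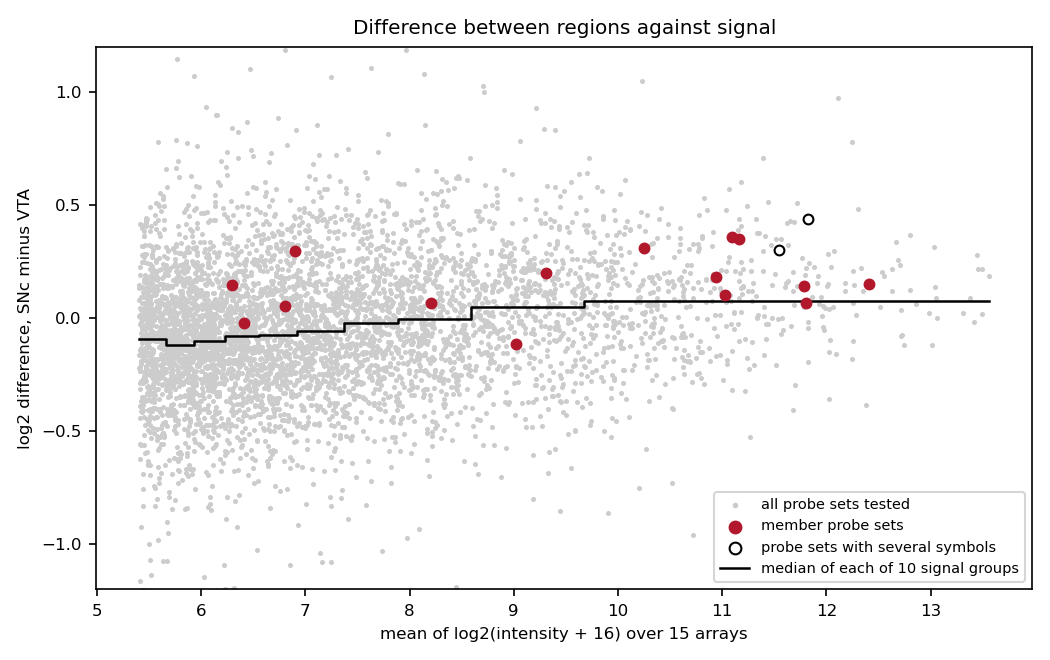
Log2 difference (SNc minus VTA) against mean log2(intensity + 16) over 15 arrays for the 5244 probe sets tested (grey), the 15 member probe sets (red), the 2 probe sets with several symbols (open circles) and the median of each of 10 groups by signal (black line); 34 probe sets lie beyond the plotted range of 1.2. The black line is at -0.09 in the dimmest group, -0.12 in the next and 0.07 in the brightest, and 13 of the 15 red points lie above it.

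Hexokinase phosphorylates glucose on entry and so traps it in the cell, and Hk1 encodes the isoform that predominates in brain. The Hk1 probe set rc_AI012593_at ran from 176 to 615 with a median of 279 in SNc, against 199.7 to 429 with a median of 274 in VTA. SNc 4 and VTA 4 were the highest array of each region, and the VTA range lay inside the SNc range. The difference was 0.07 (SE 0.24, 95% interval -0.43 to 0.56, adjusted p = 0.923 in limma). U27319exon_at, the other Hk1 probe set tested, ran from 66.7 to 139.9 in SNc and from 79.0 to 123 in VTA, with a difference of 0.05 (95% interval -0.25 to 0.36). The hexokinase control probe sets had means below 26.3, the level that the log2 mean of an ordinary probe set, turned back into an intensity, had to exceed. The 3′ set reached 45.5 in SNc 6. They averaged 8.15 (5′), 12.0 (middle) and 23.9 (3′) in SNc, against 7.92 (5′), 11.5 (middle) and 12.8 (3′) in VTA. The smallest exact permutation p among these 3 was 0.0737 for the 3′ set (adjusted over the 3, 0.221). A regional difference of Hk1 was therefore not detectable, and the interval of rc_AI012593_at still allowed one of about 0.56 in the direction of SNc.

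Phosphofructokinase makes the committed step of glycolysis, and Pfkm, Pfkl and Pfkp encode its muscle, liver and platelet subunits, which assemble into tetramers. The Pfkm probe set U25651_at ran from 968 to 1681 with a median of 1329 in SNc, against 856 to 1276 with a median of 1039.9 in VTA. In SNc 4 of the 8 arrays lay above every VTA array, while the other 4 lay within the VTA range. The difference was 0.31 (SE 0.15, unadjusted p = 0.0481) and missed the threshold in limma (adjusted p = 0.316, and 0.129 to 0.482 over the alternatives). The other Pfkm probe set, D21869_s_at, did not share it, at 69.9 ± 13.9 in SNc and 71.1 ± 13.9 in VTA (difference -0.02, 95% interval -0.32 to 0.28). Its sign turned under 9 alternatives, so no direction can be given for it.

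The SNc arrays were more widely spread than the VTA arrays for Pfkl. X58865mRNA_at ran from 35.8 to 103 in SNc, with an SD of 25.4, and from 50.9 to 69.3 in VTA, with an SD of 7.30. In SNc 5 arrays lay above every VTA array and SNc 7 and SNc 8 lay below every one, and the difference of the means was 0.15 (SE 0.18). The spread itself was not tested.

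The probe sets of Pfkp differed in sign. L25387_g_at ran from 1756 to 2503 with a median of 2037 in SNc, against 1495 to 2643 with a median of 1713 in VTA (difference 0.18, SE 0.14). L25387_at ran from 345 to 772 in SNc and from 420.0 to 840.1 in VTA (difference -0.11, SE 0.19). On both, the highest of all 15 arrays was VTA 8 and the second was SNc 7. Without VTA 8 the differences were 0.27 and -0.004, with adjusted p of 0.332 and 0.996 in limma.

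**Figure D2:**
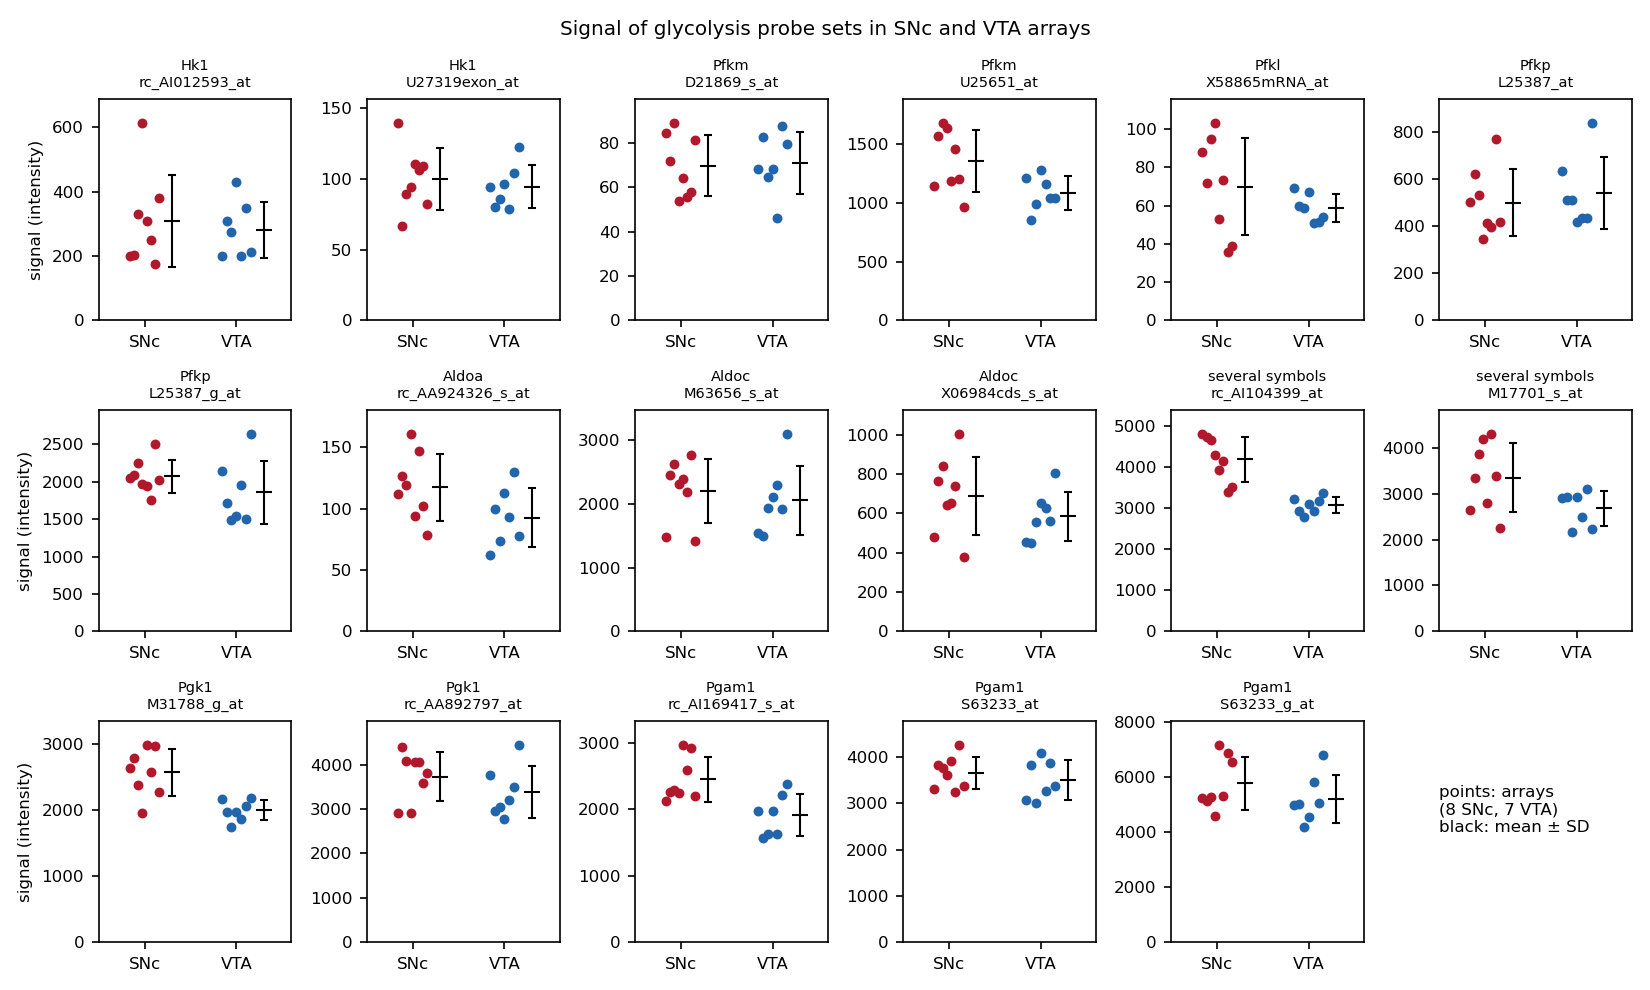
Signal (intensity, linear scale from 0) of the 15 member probe sets tested and the 2 probe sets with several symbols, in order along the pathway, with points for the 8 SNc (red) and 7 VTA (blue) arrays and the mean ± SD in black. SNc and VTA points overlap in every panel but that of rc_AI104399_at.

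Aldolase cleaves fructose bisphosphate into the triose phosphates. Aldoa, the form widespread in tissues and dominant in muscle, had 1 probe set, rc_AA924326_s_at, which ran from 78.4 to 161 with a median of 116 in SNc, against 62.5 to 130.2 with a median of 93.1 in VTA. The difference was 0.30 (SE 0.16, adjusted p = 0.396), with 7 of 8 SNc arrays above the VTA mean. Aldoc, the brain form, is carried in much of the forebrain by astrocytes. Its probe set M63656_s_at ran from 1414 to 2759.9 with a median of 2346 in SNc, against 1499.9 to 3097 with a median of 1938 in VTA (difference 0.10, SE 0.18). X06984cds_s_at ran from 379 to 1004 in SNc and from 448 to 806 in VTA (difference 0.20, SE 0.19). SNc 1 and SNc 8 were the lowest SNc arrays on both Aldoc probe sets, and VTA 8 was the highest VTA array on both. The astrocyte markers Aqp4 and Slc1a2 averaged 31.8 and 46.5 in SNc and 63.5 and 61.5 in VTA, and Slc1a3 400.4 in SNc and 395 in VTA. The brightest, S100b and Glul, averaged 1344 and 1310 in SNc and 1499 and 1319 in VTA. Gja1 was dim, at 3.54 in SNc and 4.31 in VTA. Whether astrocyte RNA contributed to the Aldoc signal was not tested.

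Triose phosphate isomerase, which interconverts the triose phosphates, could be followed through rc_AI104399_at only, a probe set that the annotation assigns to Tpi1 together with Tpi1l1 and Tpi1l2. It ran from 3412 to 4824 with a median of 4232 in SNc, against 2795 to 3366 with a median of 3113 in VTA. All 8 SNc arrays lay above all 7 VTA arrays, though SNc 7 exceeded VTA 8 by 1.37% only. Within the brightest group of 525 probe sets, 9 had no overlap between the regions. The signal averaged 4200.1 ± 544 in SNc and 3079.6 ± 199 in VTA, a 1.35-fold difference (log2 difference 0.44, SE 0.12, 95% interval 0.19 to 0.69). The adjusted p in limma was 0.0700, which missed the threshold. The adjusted p passed in 8 of 29 alternative fits and ran from 0.0188 to 0.215 over them, with log2 differences of 0.34 to 0.53. Centring on the median raised every difference, while centring on the bright probe sets, whose median differed by 0.03, lowered every one. Among the fits that passed, the adjusted p was 0.0396 with arrays centred on their median and 0.0324 with no filter. It was 0.0362 in the exact Wilcoxon test and 0.0443 without SNc 7. The Wilcoxon value only restates the lack of overlap. On leaving out each array in limma, the adjusted p ran from 0.0443 to 0.138.

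GAPDH oxidises glyceraldehyde phosphate and passes electrons to NAD, and its transcript is widely used as a loading control. The array carries control probe sets against the 5′ part, the middle and the 3′ part of the Gapdh transcript, so that 1 gene is read at 3 places. The 3′ set ran from 3855 to 6788 with a median of 4788 in SNc, against 3075 to 4541 with a median of 3695 in VTA. In SNc 5 of 8 arrays lay above every VTA array. The middle set ran from 2206 to 4565 with a median of 2861 in SNc, against 1654 to 3147 with a median of 2085 in VTA. The 5′ set ran from 765 to 2050.1 with a median of 1164 in SNc, against 533 to 1542 with a median of 812 in VTA. On all 3, SNc 4 was the highest of the 15 arrays and VTA 4 the highest of VTA.

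The regional difference of Gapdh was of like size along the transcript, at 0.49 for the 5′ set, 0.45 for the middle and 0.43 for the 3′ set. Over 8 GAPDH and actin control measures, the 3′ set passed as higher in SNc (exact two-sided permutation p = 0.00373, adjusted 0.0298), and the middle and 5′ sets missed (adjusted p = 0.0738 and 0.136). The call of the 3′ set was lost when 1 of 9 arrays was dropped, namely SNc 2, SNc 3, SNc 4, SNc 5, SNc 6, VTA 1, VTA 2, VTA 3 or VTA 8, with a highest adjusted p of 0.0799. The middle set passed without SNc 8 or VTA 4 and with arrays centred on their median (adjusted exact permutation p = 0.0420, 0.0226 and 0.0323), and the 5′ set passed without VTA 4 (0.0373). The middle and 5′ sets also passed by exact sign flips over the shared replicate numbers, which the labels do not tie to animals. On all 3 sets each SNc array lay above the VTA array of its number, so each unadjusted p was the smallest that these flips allow. SNc 7, whose number no VTA array shares, was not used. With the control probe sets put into the limma fit and adjusted over all probe sets, none of the 3 passed (adjusted p = 0.138 for 3′, 0.207 for middle and 0.304 for 5′). M17701_s_at, annotated to Gapdh with Gapdh-ps118 and Gapdhl10, averaged 3348 ± 745 in SNc and 2679 ± 378 in VTA, with a difference of 0.30 (SE 0.16, adjusted p = 0.366 in limma). The ratio of 3′ to 5′ signal, which follows RNA length, ran from 3.31 to 5.05 in SNc and from 2.94 to 6.82 in VTA (exact permutation p = 0.682, adjusted 0.741). VTA 4 had the lowest ratio and VTA 8 the highest. The actin 3′ control averaged 1308 ± 232 in SNc and 1037 ± 176 in VTA, and also missed after adjustment (difference 0.33, adjusted exact permutation p = 0.0738). The actin middle and 5′ controls differed by 0.05 and 0.12 (adjusted exact permutation p = 0.741 and 0.571). Of the 3 actin sets, the 3′ one thus had the largest difference, and whether it exceeded the other two was not tested. The antisense GAPDH control probe sets had means of 52.3 to 87.2 in SNc and 37.3 to 85.7 in VTA.

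**Figure D3:**
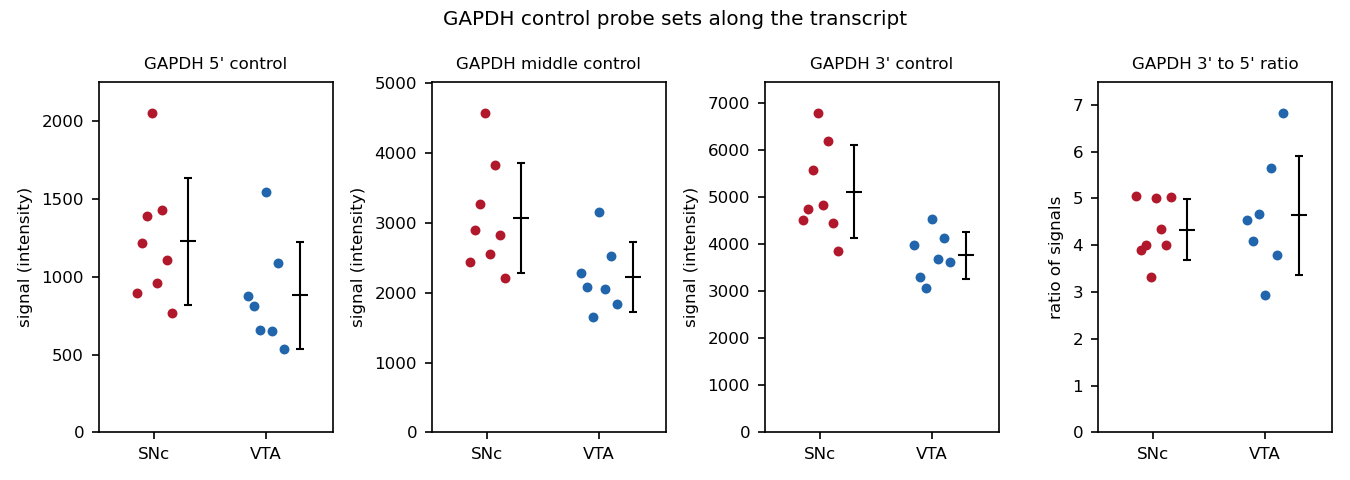
Signal (intensity, linear scale from 0) of the GAPDH control probe sets against the 5′ part, middle and 3′ part of the transcript, and the ratio of 3′ to 5′ signal, in the 8 SNc (red) and 7 VTA (blue) arrays, with the mean ± SD in black. SNc means lie above VTA means on the 3 probe sets, with overlapping arrays, and the ratios of both regions overlap.

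Phosphoglycerate kinase makes the first ATP that is regained in the pathway. The Pgk1 probe set M31788_g_at ran from 1952 to 2994 with a median of 2608 in SNc, against 1752 to 2191 with a median of 1981 in VTA. In SNc 7 of 8 arrays lay above every VTA array, and only SNc 4 fell within the VTA range. The means were 2572 ± 358 in SNc and 2003 ± 157 in VTA, a 1.27-fold difference (log2 difference 0.35, SE 0.12, unadjusted p = 0.0111), which missed the threshold in limma (adjusted p = 0.169, and 0.0640 to 0.337 over the alternatives). Another Pgk1 probe set, rc_AA892797_at, ran from 2903 to 4394 in SNc and from 2769 to 4447 in VTA, where VTA 8 was the highest of all arrays (difference 0.14, SE 0.14). The third, M31788_at, stayed dim at 0.891 to 20.1 in SNc and 11.1 to 25.8 in VTA, and was the ordinary member probe set left out by the filter.

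Phosphoglycerate mutase moves the phosphate group on phosphoglycerate, ahead of enolase, and Pgam1 encodes its brain form. The probe set rc_AI169417_s_at ran from 2128 to 2974 with a median of 2277 in SNc, against 1576 to 2386 with a median of 1979.9 in VTA. All 8 SNc arrays lay above the VTA mean, and 5 of 7 VTA arrays lay below every SNc array. The difference was 0.36 (SE 0.13, unadjusted p = 0.0151), a 1.28-fold difference of 2452 ± 335 in SNc over 1914 ± 315 in VTA, and it missed the threshold in limma (adjusted p = 0.195, and 0.0881 to 0.330 over the alternatives). The other Pgam1 probe sets gave smaller differences. S63233_g_at ran from 4585 to 7163 in SNc and from 4169 to 6775 in VTA (difference 0.15, SE 0.14), and S63233_at from 3234 to 4258 in SNc and from 2996 to 4069 in VTA (difference 0.07, SE 0.12).

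**Figure D4:**
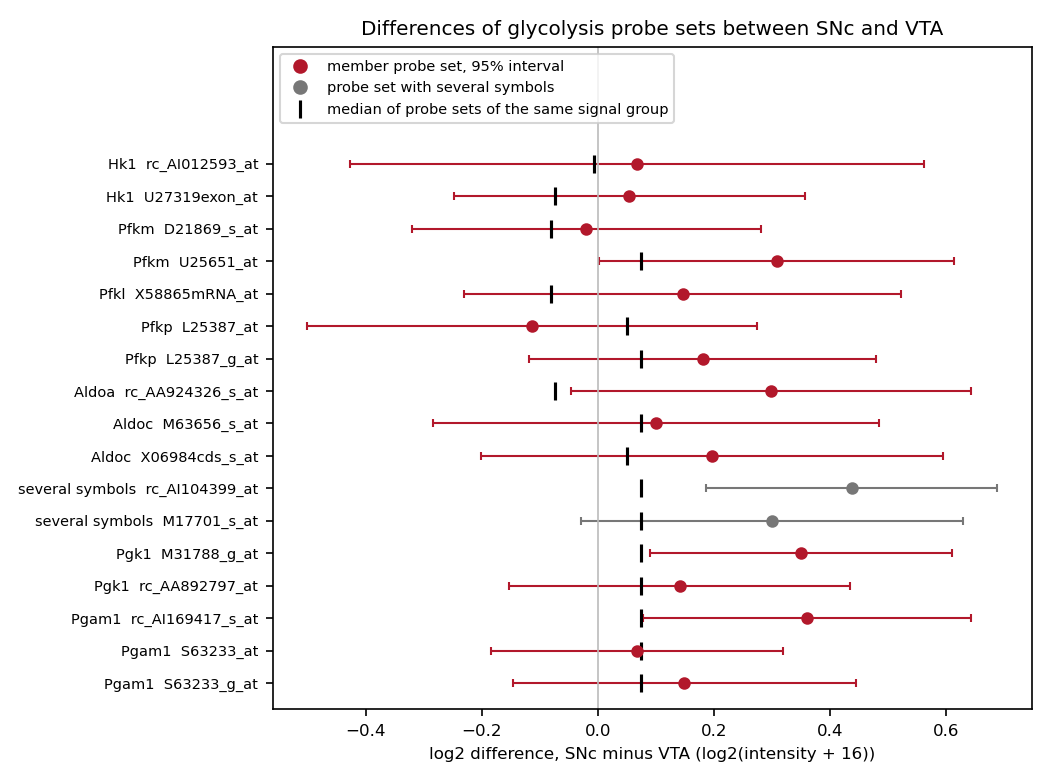
Log2 difference, SNc minus VTA, of each tested probe set on the log2(intensity + 16) scale with its 95% interval from limma, in pathway order (red, members; grey, probe sets with several symbols), and the median of all probe sets in the same signal group (black tick). The member estimates run from -0.11 to 0.36, and rc_AI104399_at has the largest shown, at 0.44.

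The upstream sequences of Gapdh and Pgam1 are shown as examples. Both had higher mean signal in SNc on every probe set against their sense transcript in the fit reported, without passing over all probe sets. The same held for Aldoa, Aldoc and Pfkl, for both Hk1 probe sets tested and for rc_AI104399_at, annotated to Tpi1 among others. The sequences of these genes are not shown. Promoters of glycolytic genes are textbook targets of the hypoxia-inducible factor HIF-1, whose core motifs are ACGTG and GCGTG, or CACGT and CACGC on the opposite strand. The windows are the 250 bases before the RefSeq gene start on build GRCr8, printed 5′ to 3′ along the gene, with those motifs in capitals. The Gapdh window is chr4:159652468-159652717 on the minus strand, and the Pgam1 window is chr1:250672902-250673151 on the plus strand.
Gapdh: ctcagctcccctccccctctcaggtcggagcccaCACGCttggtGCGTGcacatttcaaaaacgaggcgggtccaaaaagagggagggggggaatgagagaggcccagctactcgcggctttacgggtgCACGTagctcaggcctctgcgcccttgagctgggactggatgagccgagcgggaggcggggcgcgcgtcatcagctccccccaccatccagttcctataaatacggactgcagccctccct
Pgam1: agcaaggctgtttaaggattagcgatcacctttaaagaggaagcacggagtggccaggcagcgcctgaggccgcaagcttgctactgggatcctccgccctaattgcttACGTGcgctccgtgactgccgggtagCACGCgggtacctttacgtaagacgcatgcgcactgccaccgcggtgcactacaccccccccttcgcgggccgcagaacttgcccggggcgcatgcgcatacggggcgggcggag
The Gapdh window held 3 motifs, starting 216, 206 and 121 bases before the gene start, and the Pgam1 window held 2, starting 141 and 115 bases before it. Of the 10 genes, 9 had an entry, with 12 gene starts in all, and Pgk1 had none. A motif was found at 8 of those 12 starts and for 8 of the 9 genes, the exception being Tpi1. Its shared probe set rc_AI104399_at had the largest difference of the tested probe sets described, at 0.44. Over all 33469 RefSeq gene starts of the same build, 36.7% of the 250-base windows held at least 1 of the motifs. The motifs are letter matches only, and binding was not measured.

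The member probe sets also showed which arrays stood high or low within a region. In SNc, SNc 7 was among the 3 highest of the 15 arrays for 8 of the 15 member probe sets and SNc 3 for 7, while SNc 8 was among the 3 highest for 1 and among the 3 lowest for 4. SNc 4 was among the 3 highest for 4 and among the 3 lowest for 5, and SNc 7 was also the lowest of all for 2. In VTA, VTA 3 was among the 3 lowest for 7 and the lowest of all for 4. VTA 8 was unlike the other VTA arrays, since it was the highest of all 15 arrays for 4 probe sets, both of Pfkp and 1 each of Aldoc and Pgk1, and among the 3 highest for 7. Hk1, Pfkm and Pfkl peaked on other arrays, with SNc 4 highest for rc_AI012593_at and X58865mRNA_at and SNc 3 highest for both Pfkm probe sets. Without VTA 8 the median member difference was 0.21, with 14 of 15 positive, and without both VTA 5 and VTA 8 it was 0.26, with 12 of 15 positive. In neither fit did a member pass the threshold.

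**Figure D5:**
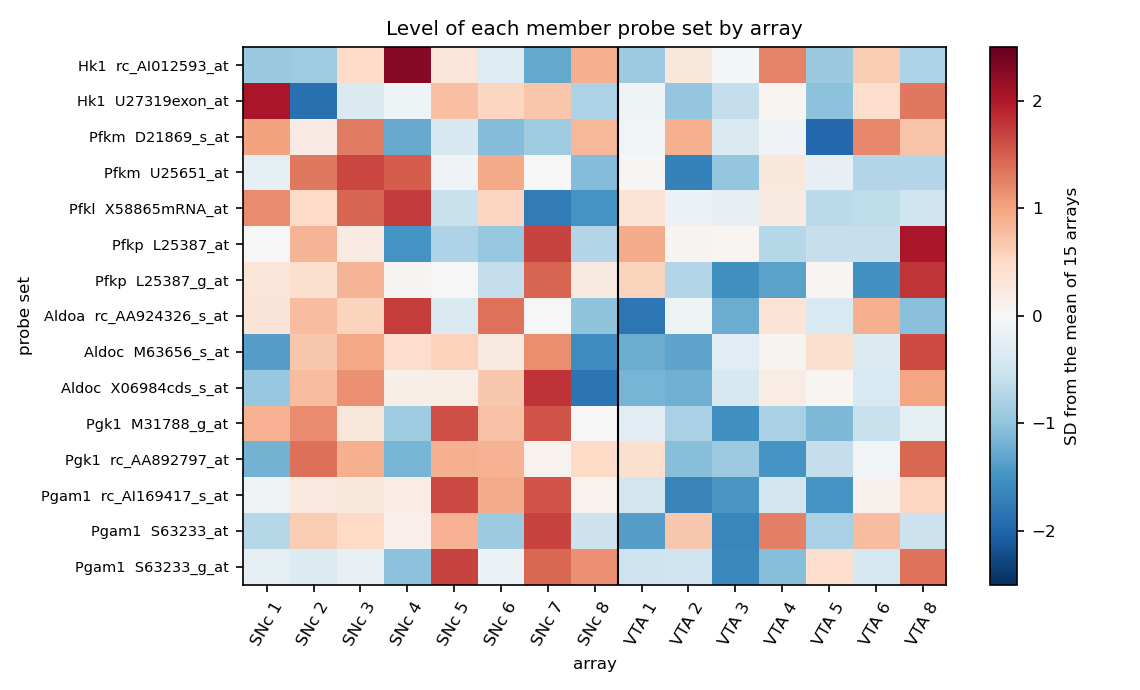
Level of the 15 member probe sets (rows, in pathway order) on each array (columns, SNc left of the black line and VTA right), as SDs from that probe set's mean over 15 arrays of log2(intensity + 16), with red above and blue below the mean. VTA 8 is red for Pfkp, Aldoc and 1 of the Pgk1 probe sets, and also for U27319exon_at, D21869_s_at, S63233_g_at and rc_AI169417_s_at. VTA 3 is blue in most rows.

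Among the other genes of glycolysis and glucose supply, the genes that passed act below phosphoglycerate mutase. The list of 44 genes, written with earlier results of these data known, held 26 with a tested probe set, on 37 probe sets. Of these 37, 3 passed as higher in SNc, for 2 genes, Ldhb and Eno3, and 0 as higher in VTA, where 0.839% of all probe sets tested were called higher in SNc. In all, 23 of the 37 differences were positive, with a median of 0.18. Ldhb, the lactate dehydrogenase subunit that favours turning lactate into pyruvate, ran from 5042 to 6966 in SNc and from 2501 to 3531 in VTA on U07181_at (difference 0.98, SE 0.12, adjusted p = 0.000161). The other Ldhb probe set, U07181_g_at, ran from 5270.3 to 7661 in SNc and from 2791 to 4397 in VTA (difference 0.78, SE 0.14, adjusted p = 0.00313). Eno3, the muscle enolase, ran from 63.7 to 262 in SNc and from 5.37 to 62.4 in VTA (difference 1.95, SE 0.29, adjusted p = 0.000836). Eno3 was dim in VTA, and its difference ran from 1.24 to 2.52 over the alternatives, which include other offsets.

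The next genes by p missed the threshold. Pdha1, the catalytic alpha subunit of pyruvate dehydrogenase, which feeds pyruvate to the citric acid cycle, ran from 946 to 1142 in SNc and from 701 to 892 in VTA with no overlap (difference 0.44, SE 0.11, adjusted p = 0.0508). Its other probe set, Z12158cds_at, gave 0.18 (SE 0.31). Pkm, pyruvate kinase, averaged 2893 ± 713 in SNc and 1863 ± 302 in VTA (difference 0.60, SE 0.17, adjusted p = 0.0725). Pfkfb1, an enzyme that makes and removes the activator of phosphofructokinase, had its higher mean in VTA, at 127 ± 18.2 in SNc and 185 ± 34.0 in VTA on M27886exon_at (difference -0.48, SE 0.13, adjusted p = 0.0747). Its 3 other probe sets were too dim to be tested and differed by 0.16, -0.01 and -0.11. The glucose transporters were named after their values were seen. On the tested probe sets, Slc2a1 differed by -0.04 (SE 0.26) on S68135_s_at and -0.15 (SE 0.25) on M13979_at. Slc2a3 differed by 0.03 (SE 0.14) on D13962_g_at, and Slc2a4 by 0.28 (SE 0.19) on D28561_s_at.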

How the data were processed

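RNA of laser-captured SNc (8) and VTA (7) neurons was measured on Affymetrix rat arrays. The authors deposited a table of linear intensities, with 1 value for each probe set on each array. By these values, the 2% trimmed mean was 150.2 on each array, so arrays had been scaled to a common level. The software behind them is not given in the sources used here, and no detection calls were used. The number of arrays limits the precision.

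From the deposited intensities, log2(intensity + 16) was computed. The 59 control probe sets and the 40% of the other 8740 with the lowest mean of log2(intensity + 16) were left out. That mean, turned back into an intensity, was 26.3 at the cut, so a plain mean intensity can exceed it in a probe set left out. The remaining 5244 were fitted in limma 3.58.1 (R 4.3.3, lmFit and eBayes, two-sided). The same fit was run on simulated data drawn independently for each array, which cannot show how dependence between arrays affects it. Control probe sets were compared by exact permutation over all 6435 splits of the arrays (Python 3.11.15, SciPy 1.17.1). The hexokinase controls formed a family of 3 of their own, added later. Symbols came from the platform annotation, under which 7006 probe sets had 1 symbol, 308 several and 1426 none, and promoters from RefSeq, build GRCr8.

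The members, the list of other genes and the tests were chosen with earlier results of these data known. The text names all member probe sets and, of the other pathway genes, those past the threshold and the next 3 by p, and exceptions are marked. Marker lists of microglia, vessels, erythrocytes and muscle were also read, and none of their tested genes passed: their signals summed to at most 124, 164, 388 and 184 in SNc and 131, 174, 1313 and 213 in VTA. Alternatives were quantile normalization, 2 centrings, offsets of 1 and 64, other filters and thresholds, the replicate number as a block, array weights, another variance prior, an exact Wilcoxon test and leaving out each array.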

Additional observations from a re-analysis of the deposited data

How the results depend on the processing

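No member probe set passed the threshold under any of the 31 alternatives. The median member difference of 0.15 stayed positive, from 0.111 to 0.264. Over 464 values of single member probe sets under the alternatives, 16 changed sign, all with adjusted p of at least 0.793. For Pfkm D21869_s_at these were 0.0643 after quantile normalization, 0.0727 after median centring and 0.0083 with the replicate block, with a range of -0.0975 to 0.0249 on leaving out each array. Pgam1 S63233_at was -0.0974 after quantile normalization. Hk1 rc_AI012593_at was -0.0072 with array weights and -0.0843 without VTA 5 and VTA 8, an alternative chosen after seeing the data, and -0.0851 to 0.172 on leaving out each array, and U27319exon_at ran from -0.00986 to 0.121. The causes were not tested.

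All calls on the array numbered 104. They were 40 at a threshold of 0.01, 208 at 0.10, 60 with an offset of 1, 184 with array weights, 67 in the Wilcoxon test, and 56 to 115 on leaving out each array. The other pathway genes called, 2 in the fit reported, were 7 at 0.10, with an offset of 64 and with array weights, 6 with the random replicate block, 5 with a trended variance, and 2 to 4 on leaving out each array. The GAPDH middle control passed after median centring, at 0.545, and on leaving out each of 2 arrays, and the 5′ control on leaving out 1. Leaving out each array gave 0.368 to 0.484 for the 3′ control, 0.366 to 0.540 for the middle, 0.377 to 0.636 for the 5′ control and -0.170 to 0.0319 for the log2 ratio of 3′ to 5′. Without VTA 5 and VTA 8 the 3′ control was 0.417 (exact permutation, adjusted p = 0.0746) and the ratio 0.118.

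Replicate numbers are shared by 7 arrays of each region. The deviations of same-numbered arrays correlated by 0.0439 to 0.254, all positive but not all above 0.1. The labels do not say whether a shared number means a shared animal or batch, and this was not tested. Of the 7 VTA arrays, 3 correlated best with the SNc array of their own number. With the replicate block the count of calls was 99 (fixed) or 153 (random), and by exact sign flips over the 7 numbers the GAPDH middle and 5′ controls passed, at 0.464 and 0.502. Their unadjusted p were the smallest that flips over 7 numbers allow.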
